A study of Homo sapiens with 8 samples.

Results

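The heat shock chaperones described here were 10 genes chosen by symbol: HSPA1A, HSPA1B, HSPA8, HSPA5, HSP90AA1, HSP90AB1, HSPH1, HSPD1, HSPE1 and DNAJB1. They were 10 of the 19475 rows of the mRNA table. Of these genes, 7 were among the 11155 gene names with an N6-methyladenosine (m6A) peak, and they carried 16 of 22001 m6A regions, a region being a set of overlapping peaks from the 4 peak lists. In single lists these were 60 of 70751 peaks.

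HCT116, an established human colorectal carcinoma cell line, was kept with PBS (Control) or with Fusobacterium nucleatum (FUSO), an anaerobe of the mouth that is enriched in colorectal tumours. The study asked how it alters m6A in the cells. Per the methods of the study, the bacterium was added at 100 per cell for 2 h, and each group had 2 biological replicates. Polyadenylated RNA fragments were sequenced after pull-down with an m6A antibody (IP) and without it (input). All groups share this line and its medium, so the comparison is of a single cell line in culture at a single time.

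Heat shock proteins of the HSP70, HSP90 and HSP60 classes bind unfolded proteins and help them to fold, and co-chaperones such as the J-domain proteins set the pace of their ATP cycle. Protein damage frees the transcription factor HSF1, which binds repeated GAA elements (heat shock elements) in front of many of these genes, while the form in the endoplasmic reticulum (ER) follows the unfolded protein response. m6A is a methyl mark on adenosines within DRACH motifs, of which GGAC is the commonest, and it lies mostly around stop codons. In cells under heat stress m6A near the start of chaperone mRNAs has been linked to their translation, which is why peaks near the transcript start are given apart below.

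The 4 lists held between 17039 and 18365 peaks each, and between 14 and 16 peaks on the heat shock chaperones. Pairs of input libraries had correlations of 0.9882 to 0.9936 across genes on the log2 scale. Levels of mRNA were in FPKM, a fragment count divided by transcript length and library total. Of 6 markers of colon epithelium, 5 were over 1 FPKM, and VIL1 was at 0 to 0.018 FPKM. Their summed level was 3654 to 3942 FPKM in Control and 3212 to 3497 FPKM in FUSO. Of 9 markers of blood cells, fibroblasts and endothelium, 2 were over 1 FPKM, CD68 and COL1A1, with sums of 12.02 to 13.2 FPKM in Control and 14.4 to 14.99 FPKM in FUSO. CD3E was listed at 0 in all libraries and PTPRC at no more than 0.00684 FPKM. Both sums separated the groups, but single markers differed in direction. The first sum was mostly KRT8 (1940 to 2290 FPKM) and KRT18 (1070 to 1460 FPKM). These and CDX2 were lower in both FUSO libraries than in both Controls, while EPCAM and CDH1 were higher. COL1A1 was higher in both FUSO libraries, and CD68 overlapped. The part of these markers in the results below was not tested.

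No heat shock chaperone mRNA passed the test between FUSO and Control, and the largest difference was that of the co-chaperone DNAJB1, at 1.41 times the Control level with an adjusted p of 0.0875 (limma, a linear model that shares the estimate of spread between genes, Benjamini-Hochberg adjusted over the 11088 genes tested). The number of chaperones called at an adjusted p under 0.05 was 0 of 10 in either direction, beside 0.803% of all genes tested, 0.667% called higher in FUSO and 0.135% called lower. At an unadjusted p under 0.05, 4 of the 10 were higher (DNAJB1, HSPA5, HSPH1 and HSP90AA1) and 0 lower, beside 7.04% and 6.45% of all genes. Both FUSO libraries lay above both Control libraries for 5 of the 10, these 4 and HSPD1, beside 26.1% of all genes, and below them for 0, beside 21.1%. The median log2 fold change was 0.16 for the 10 genes and 0.01 for all genes tested, with 9 of the 10 above 0. These genes were measured in the same 4 libraries and are not independent of each other. Fold changes are on the scale of log2(FPKM + 1). FPKM are relative to the library total, so the number of cells and the total RNA per cell do not show in them. Since mRNA was extracted from whole cultures, a change in all cells and a change in some of them cannot be told apart.

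**Figure D1:**
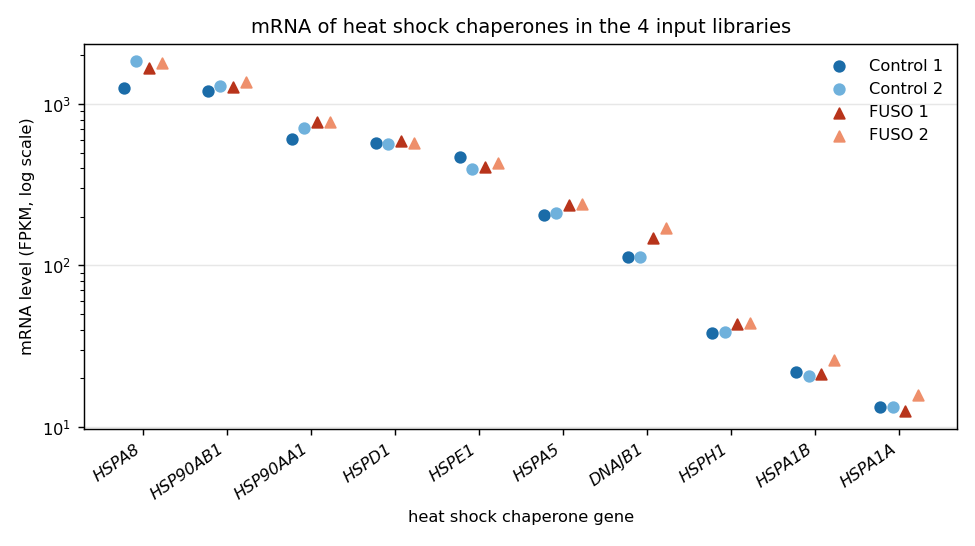
Level of each heat shock chaperone mRNA (FPKM, log axis) in the 4 input libraries, with circles for Control and triangles for FUSO. The levels run from 12.5 FPKM for HSPA1A to 1835 FPKM for HSPA8, and the gap between the groups is widest for DNAJB1, at 112 and 113 FPKM in Control and 149 and 170 FPKM in FUSO.

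By level per transcript length, the order from the highest was HSPA8, HSP90AB1, HSP90AA1, HSPD1, HSPE1, HSPA5, DNAJB1, HSPH1, HSPA1B and HSPA1A, by the means of Control as by the means of FUSO. HSPA8 and HSP90AB1 were the only neighbours in this order whose libraries overlapped. The stress-inducible HSPA1A and HSPA1B thus stood lowest, below HSPH1, the next in level.

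HSPA1A (GRCh37 chr6:31783320-31785719) and HSPA1B (chr6:31795515-31798031) are neighbouring genes without introns that encode almost the same protein, the inducible cytosolic HSP70, which is strongly induced by HSF1 in heat shock. HSPA1A measured 13.3 and 13.3 FPKM in Control and 12.5 and 15.7 FPKM in FUSO. HSPA1B measured 21.7 and 20.8 FPKM in Control and 21.1 and 26.1 FPKM in FUSO. The groups overlapped for both genes, with FUSO 2 the highest library and FUSO 1 close to the Controls. The log2 fold changes were 0.07 for HSPA1A and 0.14 for HSPA1B, with 95% intervals from -0.21 to 0.35 and from -0.13 to 0.41 and adjusted p-values of 0.812 and 0.593 (limma). Without FUSO 2 both were below 0, at -0.085 and -0.0064. Of the 50-base stretches of the HSPA1A transcript, 75.1% also occur in HSPA1B, and 71.6% of those of HSPA1B occur in HSPA1A, so how the reads were split between them is uncertain. Their sum was 35.1 and 34.04 FPKM in Control and 33.6 and 41.7 FPKM in FUSO, and it overlapped as well.

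HSPA8 encodes HSC70, the HSP70 made at all times, which also works in clathrin uncoating and chaperone-mediated autophagy. Its mRNA measured 1262 and 1835 FPKM in Control and 1678 and 1793 FPKM in FUSO. The 2 Control libraries spanned both FUSO libraries. The log2 fold change was 0.19 (SE 0.17, adjusted p = 0.649, limma), and it rested on the Control library used: it was -0.081 without Control 1 and 0.46 without Control 2, with an adjusted p of 0.0146 in the latter.

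HSPH1, of the HSP110 class, exchanges the nucleotide of HSP70 and so restarts its cycle. It measured 38.1 and 38.7 FPKM in Control and 43.5 and 43.95 FPKM in FUSO. The groups did not overlap, and the libraries within each were close. The log2 fold change was 0.18 with an SE of 0.06 (adjusted p = 0.288, limma).

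DNAJB1, also called HSP40, is the J-domain protein that hands substrates to HSP70 and stimulates its ATPase. Its mRNA measured 112 and 113 FPKM in Control (113 ± 0.143, SD, n = 2) and 149 and 170 FPKM in FUSO (159 ± 15.05, SD, n = 2). Both FUSO libraries lay above both Controls, which were nearly equal, while the FUSO libraries were apart from each other. The log2 fold change was 0.49 with an SE of 0.08 and a 95% interval from 0.30 to 0.68. It ranked 108 among the 11088 genes by p (adjusted p = 0.0875, limma). Across 13 alternative settings the fold change stayed between 0.40 and 0.59 with adjusted p-values of 0.0515 to 0.429, so it was not called in any of them.

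HSP90AA1 and HSP90AB1 encode the cytosolic HSP90 proteins, which complete the folding of kinases and steroid receptors. HSP90AA1, the more stress-responsive of the pair, measured 604 and 713 FPKM in Control and 773 and 773 FPKM in FUSO. The FUSO libraries were almost identical and both lay above the Controls. Its log2 fold change was 0.23 (95% interval 0.02 to 0.45), with an adjusted p of 0.342 (limma). It rested in part on the Control library used, at 0.35 without Control 2 and 0.12 without Control 1. HSP90AB1, the constitutive form, measured 1212 and 1300 FPKM in Control and 1283 and 1379 FPKM in FUSO, with overlapping groups. Its log2 fold change was 0.08 (adjusted p = 0.571, limma).

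HSPA5 encodes BiP, the HSP70 of the ER and a standard readout of the unfolded protein response. It measured 206 and 210 FPKM in Control and 238 and 240.1 FPKM in FUSO, which were 208 ± 2.93 and 239 ± 1.78 (SD, n = 2). The groups did not overlap, and the gap was several times the spread within either. The log2 fold change was 0.20 (SE 0.05, 95% interval 0.08 to 0.32), or 1.15 times the Control level, with an adjusted p of 0.223 (limma).

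HSPD1 (HSP60, chr2:198351308-198364564) and HSPE1 (HSP10, chr2:198365103-198368173) form the folding chamber of the mitochondrial matrix and lie head to head around a shared promoter. HSPD1 measured 573 and 568 FPKM in Control and 587 and 576 FPKM in FUSO. HSPE1 measured 469 and 396 FPKM in Control and 406 and 434 FPKM in FUSO. The HSPD1 groups were narrowly apart, whereas those of HSPE1 overlapped. The log2 fold changes were 0.03 for HSPD1, with a 95% interval of -0.09 to 0.14, and -0.04 for HSPE1, with an interval of -0.27 to 0.19 (adjusted p = 0.808 and 0.873, limma). HSPD1 came to -0.0065 after correction for GC content, and HSPE1 turned to 0.082 without Control 1 and 0.0087 without FUSO 1. The ratio of HSPD1 to HSPE1 was 1.22 and 1.43 in Control and 1.45 and 1.33 in FUSO. Of the 50-base stretches of HSPE1, 48.2% occur in transcripts of other genes, most of them in the HSPE1-MOB4 readthrough, and of HSPD1, 27.1%, most of them in the pseudogene HSPD1P1, which limits both values.

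The wider folding network was then set beside the 10 genes. Of 93 genes in 9 lists, 85 were tested. Of these, 1 was called higher in FUSO and 0 lower, beside 0.667% and 0.135% of all genes. At an unadjusted p under 0.05 the counts were 8 and 9, beside 7.04% and 6.45% of all genes. The median log2 fold change of the 85 genes was 0.02, and 45 of them were above 0. Their libraries separated upward in 23 and downward in 22, which is near the 26.1% and 21.1% of all genes, and the wider network thus had about as many genes on one side as on the other. The difference between these genes and the 10 chaperones was not tested.

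The gene called was PPP1R15A (GADD34), which guides the phosphatase that reverses the translational block of the integrated stress response. It measured 52.1 and 55.5 FPKM in Control and 81.3 and 84.2 FPKM in FUSO. The groups were far apart, with a log2 fold change of 0.61 (SE 0.06, adjusted p = 0.0194, limma). The call was lost with no filter on low values (adjusted p = 0.0528), without a trend in the prior variance (0.0541), without FUSO 1 (0.222) and without FUSO 2 (0.242), while the fold change stayed between 0.57 and 0.66. Of the 22 genes of the ER list, PPP1R15A was the 1 called, 10 separated upward and 3 downward, beside 0.667% called higher and 26.1% and 21.1% separated among all genes, and the median was 0.06. HERPUD1, of ER-associated degradation, followed at 0.30 (adjusted p = 0.224, limma).

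HSF1, the master factor of the heat shock response, measured 46.5 and 42.1 FPKM in Control and 41.7 and 41.1 FPKM in FUSO. It was marginally lower in FUSO without overlap, with a log2 fold change of -0.10 (adjusted p = 0.568, limma). HSF2 was at 0.11 and HSF4 at -0.16, and 0 of the 4 genes of their list, which also held HSBP1, were called. HSPA6, an HSP70 gene that is silent outside strong heat stress, was listed at 0 in all 4 libraries, and HSPA1L was listed at 0 in 3 of them.

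Among the other lists, 0 genes were called in each, with medians between -0.11 and 0.07. In the J-domain list (13 genes, median -0.02), DNAJB4 was at 0.40 and DNAJB2 at 0.27, and both had FUSO above Control. Of the 13 genes, 3 separated upward and 3 downward, beside 26.1% and 21.1% of all genes. At an unadjusted p under 0.05 (limma), 2 were higher and 2 lower, beside 7.04% and 6.45%. In the small heat shock protein list, 3 of 9 genes were tested, of which HSPB8, the partner of BAG3 in selective autophagy, measured 3.51 and 2.48 FPKM in Control and 4.64 and 4.96 FPKM in FUSO. The groups of HSPB8 did not overlap (log2 fold change 0.55, adjusted p = 0.234, limma), and HSPB11 was at 0.07. Among 20 co-chaperones of HSP70 and HSP90 (median -0.01), log2 fold changes ran from -0.26 for the ubiquitin ligase STUB1 to 0.27 for BAG3, with the cyclophilin PPID also at 0.27 and the kinase co-chaperone CDC37 at -0.24. In this list 4 of the 20 genes separated upward and 7 downward, beside 26.1% and 21.1% of all genes. At an unadjusted p under 0.05 the counts were 2 and 3, beside 7.04% and 6.45% of all genes. The difference from all genes was not tested.

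The TRiC chaperonin, which folds actin and tubulin, had its largest values at -0.12 for TCP1 and -0.06 for CCT6A, with a list median of -0.01. The mitochondrial list had the lowest median, -0.11, with GRPEL1, the exchange factor of mitochondrial HSP70, at -0.22 and the protease LONP1 at -0.17. Of other HSP70 genes HSPA14 was at -0.20 and HSPA4L at 0.15, and of other HSP90 genes the ER form HSP90B1 was at 0.08 and the mitochondrial TRAP1 at -0.06. None of the genes named from these lists passed the test (adjusted p of 0.209 or more, limma).

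The promoters were searched for a perfect heat shock element, TTCNNGAANNTTC or GAANNTTCNNGAA on either strand, from 250 bases before to 50 after the start of the canonical transcript in GRCh37. It was found in 4 of the 10 heat shock chaperones, beside 72 of 19528 protein-coding promoters (0.369%). These are shown because they are the sequences through which HSF1 is known to act, and the capitals mark the first match in each promoter, counted along the transcript strand.
HSP90AA1, 88 bases before the start, chr14:102553452-102553474, minus strand: ggttcTTCCGGAAGGTTCgggag
HSPA8, 230 bases before the start, chr11:122933057-122933079, minus strand: agcttGAAAGTTCCAGAAcgctg
HSPD1, 245 bases before the start, chr2:198364792-198364814, minus strand: gcattTTCTGGAAAGTTCtggaa
HSPH1, 59 bases before the start, chr13:31736083-31736105, minus strand: gcagaTTCTGGAAAGTTCtgatc

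HSPA8 and HSPD1 held 2 matches each and the others 1. HSPA1A, HSPA1B, HSPA5, HSP90AB1, HSPE1 and DNAJB1 had no match, which says only that these exact letters were not in that window. The 4 genes with a match had log2 fold changes of 0.23 (HSP90AA1), 0.19 (HSPA8), 0.18 (HSPH1) and 0.03 (HSPD1). In the 27 other tested genes with a match the median was 0.05, 0 were called in either direction, and both FUSO libraries were above both Controls in 9 (33.3%) and below in 5 (18.5%).

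Of the 10 heat shock chaperones, 7 carried m6A peaks, and most of their regions were found in every list. HSPA5, HSPA8, HSP90AA1, HSP90AB1, HSPH1, HSPD1 and DNAJB1 carried 16 regions in all, of which 11 had a peak in all 4 lists, beside 51.5% of all regions. A single region was lost, meaning a peak in both Control lists and in neither FUSO list, and it lay at the start of DNAJB1. No region was gained, the reverse pattern, but 3 were with peaks of a score above 1e-05 left out (in HSPA8, HSPD1 and HSPH1), 2 without the Control 1 list, 1 without Control 2 and 1 without FUSO 1. The shares over all regions were 2.64% lost and 2.38% gained. By their midpoint, 12 of the 16 regions lay in the coding sequence (CDS), 3 within 100 nt of a stop codon, 1 in a 3′UTR and 0 in a 5′UTR.

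HSPA1A, HSPA1B and HSPE1 had no peak in any list. Among genes whose mean FPKM lay within 2-fold of theirs, 11.4% (HSPA1A), 12.6% (HSPA1B) and 29.4% (HSPE1) likewise had none. This match was by level and not by transcript length. The transcripts of HSPA1A, HSPA1B and HSPE1 have 2400, 2517 and 557 nt, and those of the genes with peaks 2242 to 5244 nt. HSPA1A, HSPA1B and HSPE1 were also the genes with the most shared sequence. Of their 50-base stretches, 75.1% (HSPA1A), 73.6% (HSPA1B) and 48.2% (HSPE1) occur in transcripts of other genes. For the genes with peaks the share ran from 0% (HSPH1) to 27.1% (HSPD1). The part of shared sequence or transcript length in the missing peaks was not tested. The lists gave called peaks only, so a missing peak is not a measured absence of m6A.

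The number of peaks on the heat shock chaperones was 16 and 15 in Control and 14 and 15 in FUSO (two-sided exact permutation test p = 0.667). The bases under these peaks were 5971 and 5940 in Control and 6653 and 6685 in FUSO. The groups were well apart, by 713.5 bases between the means, but with 2 libraries a group an exact permutation test has 3 splits and a smallest p of 0.333, which is the value here. Per gene, both FUSO lists covered more than both Control lists in HSPA8, HSP90AA1, HSP90AB1 and HSPD1, and less in DNAJB1. Over all genes with a peak these shares were 14.3% and 17.8%.

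**Figure D2:**
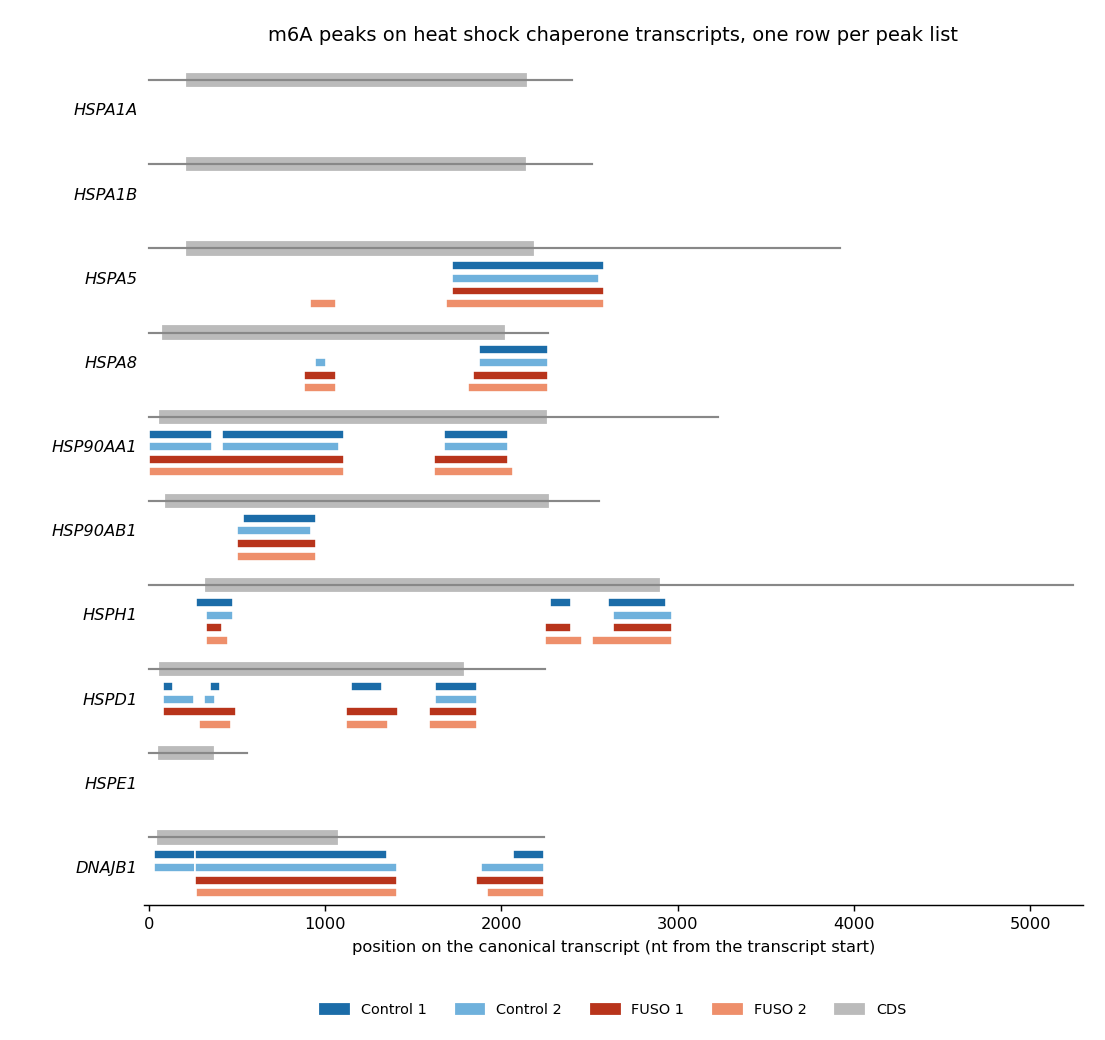
m6A peaks on the canonical transcript of each heat shock chaperone, in nt from the transcript start, with 1 row of bars per peak list (Control in blues, FUSO in reds). The grey line is the transcript and the grey block its CDS. HSPA1A, HSPA1B and HSPE1 are bare, and the bars at the start of DNAJB1 are in the Control rows alone.

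Each peak carried a score between 0 and 0.012, read as the authors' p-value, with the lowest scores at the clearest peaks. Such a score depends on read depth and transcript level as well as on enrichment, so it does not measure how much of an mRNA was methylated. Of the 16 regions, 4 were at 0 in all lists and could not be ordered. With a missing peak taken as the highest score, 8 of the 16 had a lower score in both FUSO lists than in both Control lists and 1, at the start of DNAJB1, had the reverse. Over all regions these shares were 12.4% and 14.4%. The 8 regions belonged to HSPA8, HSP90AA1, HSPH1 (2), HSPD1 (3) and DNAJB1, so they are not independent of each other, and the difference from all regions was not tested.

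**Figure D3:**
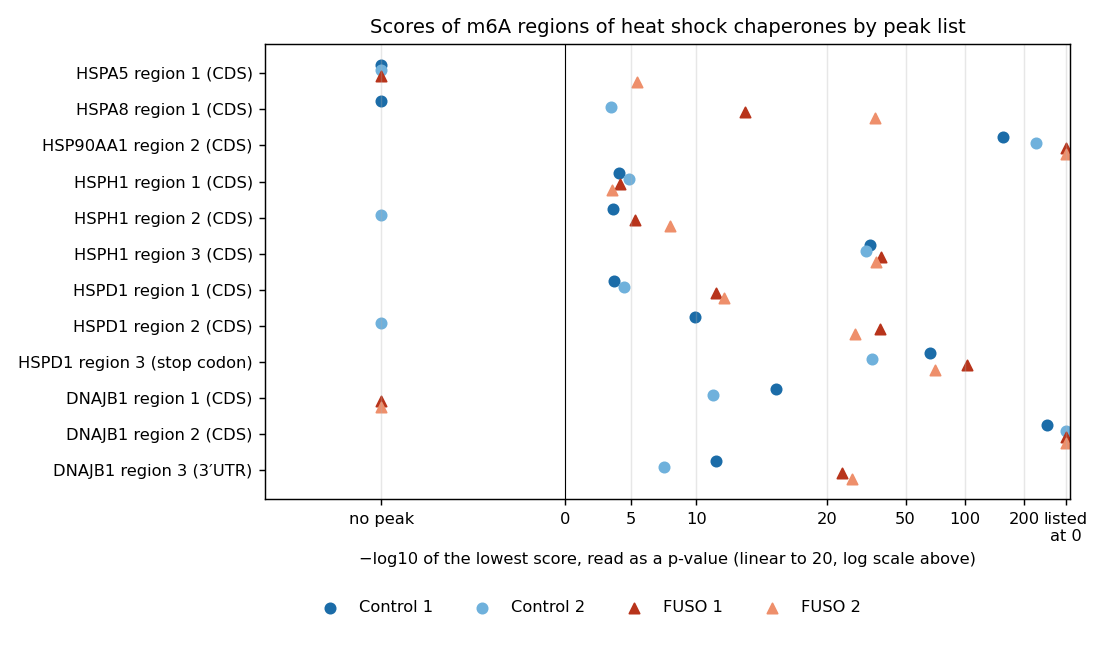
Lowest score (read as a p-value) of each m6A region in each peak list for the 12 regions not at 0 in every list, as −log10, linear to 20 and on a log scale above, with missing peaks and values listed at 0 placed at the ends. FUSO triangles lie to the right of both Control circles in 8 regions, and to the left in the region at the start of DNAJB1, where no FUSO list had a peak.

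The strongest regions held GGAC in most cases, and 21 bases around the GGAC nearest to their middle are shown here, with GGAC in capitals, as sequence of the kind that carries the mark. A window says nothing of which adenosine was methylated. All are on the minus strand of GRCh37 and are written along the mRNA.
HSPA5, 3′UTR, chr9:127998822-127998842: taaatactGGACtcaggaact
HSPA8, 3′UTR, chr11:122928379-122928399: catttgaaGGACctaaattcg
HSP90AA1, CDS, chr14:102552094-102552114: cacagtgaGGACagacacagg
HSPH1, CDS, chr13:31711455-31711475: gttaatatGGACttggactag
HSPD1, CDS, chr2:198351818-198351838: gaagagaaGGACcctggaatg
DNAJB1, CDS, chr19:14627338-14627358: gttttaaaGGACaagccccac

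The last base of the HSP90AA1 window lies beyond its exon. The HSPH1 window also holds a second GGAC, left in lower case, as only the motif nearest to the middle is in capitals. GGAC was found in 13 of the 16 regions, beside 80.7% of all regions in the same range of lengths (150 to 1231 nt), and a DRACH motif in all 16, beside 98.7%. The 3 regions without GGAC were the sole region of HSP90AB1, the first of HSPD1 and the weak one of HSPA5.

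HSPA8 and HSPA5 carried their main region at the stop codon. That of HSPA8, chr11:122928200-122928982, covered the last 206 nt of the CDS and 245 nt of the 3′UTR and had a score of 0 in all 4 lists. A second HSPA8 region in the CDS, chr11:122930318-122930497, had no peak in Control 1 and scores of 0.00033 over 61 nt in Control 2, 2e-14 in FUSO 1 and 1.3e-35 in FUSO 2. It was thus weak or missing in Control and clear in FUSO, though not gained by the rule used here. With peaks of a score above 1e-05 left out it counted as gained. In HSPA8 the bases under peaks were 391 and 452 in Control and 601 and 631 in FUSO.

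HSPA5 had its main region at chr9:127998470-127999365, with 492 nt of CDS and 404 nt of 3′UTR around the stop codon, with a score of 0 in all 4 lists. A second region in its CDS, chr9:128001372-128001521, was listed in FUSO 2 alone, with a score of 3.1e-06.

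HSP90AA1 had a long region at its start and a second one in the CDS. The second, chr14:102548532-102549570, had scores of 1e-157 and 1e-229 in Control and 0 in both FUSO lists, with 360 nt covered in each Control list and 420 and 450 nt in FUSO. HSP90AB1 carried a single CDS region at chr6:44217463-44218233, with a score of 0 in every list, over 419 nt in both Control lists and 449 nt in both FUSO lists. Peaks of both HSP90 genes were therefore called in all lists, and those of FUSO were the longer ones. For HSP90AB1 the difference was small: the Control 1 peak ended at the same base as both FUSO peaks, and the Control 2 peak began at the same base.

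HSPH1 had 3 regions. The one that reached over the end of the CDS, chr13:31711389-31712933, had scores of 1e-33 and 3.2e-32 in Control and 4e-38 and 5e-36 in FUSO. The next, chr13:31712993-31714378, had a score of 0.00021 in Control 1, no peak in Control 2, and scores of 4.5e-06 and 1e-08 in FUSO, and it counted as gained without Control 1 or with peaks of a score above 1e-05 left out. The one around the start codon, chr13:31732954-31735776, had high scores in all lists, 7.2e-05 and 1.4e-05 in Control and 6.8e-05 and 0.00025 in FUSO. Only its Control 1 peak covered the start codon. Those of Control 2, FUSO 1 and FUSO 2 began just after it, at 326 nt. The first and second thus had lower scores in FUSO, the first by little, and the region at the start codon did not separate the groups. It was also shorter in FUSO, with 91 and 121 nt beside 211 and 151 nt.

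HSPD1 had 3 regions, all with lower scores in FUSO. That at the stop codon, chr2:198351694-198352620, had scores of 6.3e-67 and 1.6e-34 in Control and 1e-102 and 4e-71 in FUSO. A CDS region, chr2:198353078-198353885, had a score of 1.3e-10 in Control 1, no peak in Control 2, and 1e-37 and 2.5e-28 in FUSO, and it counted as gained without Control 1. For the first of these the lists of Control 1 and FUSO 2 were close, whereas for the second the groups were far apart. Bases under HSPD1 peaks were 539 and 478 in Control and 983 and 685 in FUSO.

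DNAJB1, which of the 7 genes had the highest share of its transcript under peaks, had a region of 1231 nt over most of its CDS and into the 3′UTR, chr19:14626415-14628484, with scores of 1e-263 and 0 in Control and 0 in both FUSO lists. It held 10 GGAC motifs. A region at the end of the 3′UTR, chr19:14625576-14625966, had scores of 3.2e-12 and 2.7e-08 in Control and 1.6e-24 and 1.6e-27 in FUSO. DNAJB1 peaks thus had lower scores in FUSO at the end of the mRNA, while the peak at its start was not listed there.

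Near the transcript start, meaning within the first 200 nt of the canonical transcript, 3 of the 16 regions had a peak, in HSP90AA1, HSPD1 and DNAJB1. The number of such peaks was 3 and 3 in Control and 2 and 1 in FUSO, a difference of -1.5 between the means (two-sided exact permutation test p = 0.333, the smallest it can give). Counting the first 100 nt gave the same numbers, and the first 300 nt gave 5 and 4 in Control and 3 and 3 in FUSO. The wider window adds the second DNAJB1 region in all 4 lists, the HSPH1 peak in Control 1 alone and the HSPD1 peak in FUSO 2 alone. By peak midpoint the numbers were 3 and 3 in Control and 0 and 0 in FUSO, where the longer peak of HSP90AA1 and the peaks of HSPD1 had midpoints further on. With peaks of a score above 1e-05 left out they were 2 and 2 in Control and 2 and 1 in FUSO.

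**Figure D4:**
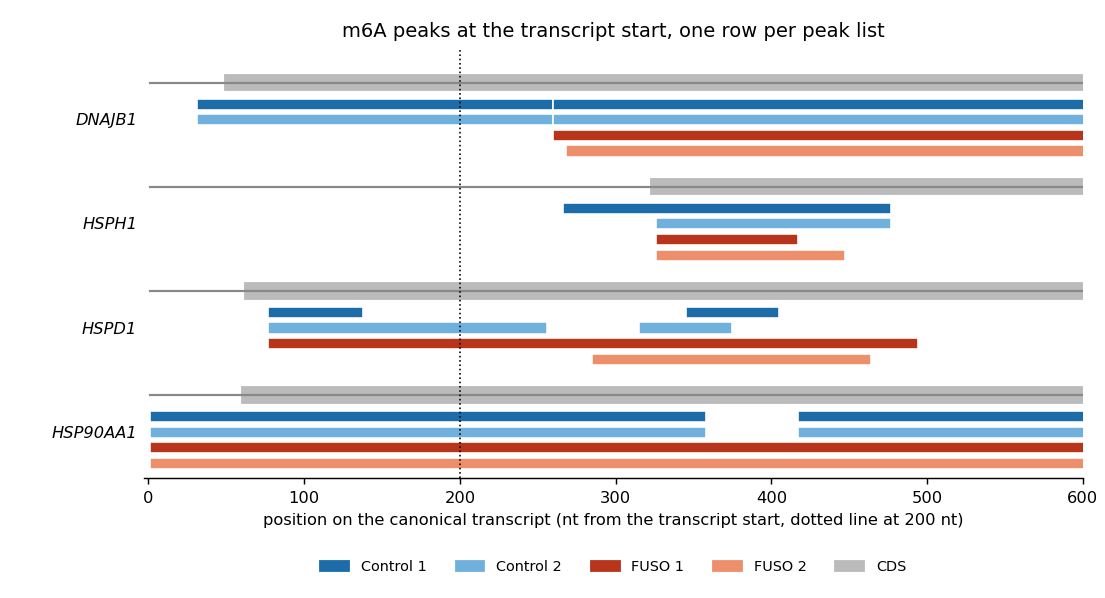
Peaks at the start of DNAJB1, HSPH1, HSPD1 and HSP90AA1, in nt from the transcript start, with 1 row of bars per peak list, a white line where 2 peaks meet, the CDS as a grey block and a dotted line at 200 nt. In DNAJB1 both Control rows begin at 31 nt and the FUSO rows at 260 and 268 nt, and in HSP90AA1 the gap in both Control rows from 357 to 417 nt is absent from the FUSO rows.

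The lost DNAJB1 region lay at chr19:14628633-14629179 on the minus strand. On the canonical transcript it ran from 31 to 259 nt, through 18 nt of the 5′UTR, the start codon and 211 nt of CDS, which is the part that encodes the J domain. Its score was 7.9e-17 in Control 1 and 5e-12 in Control 2, and no peak touched it in FUSO. Within their lists these Control peaks stood at the 33.9 and 43.4 percentiles, counted from the lowest score. A further 42 nt block of the region lay off the canonical transcript, and the annotation holds 1 isoform that touches it.

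The neighbouring DNAJB1 region began at 260 nt in both Control lists and in FUSO 1 and at 268 nt in FUSO 2. On that transcript it thus began within a few bases of the same place in all 4 lists. An exon junction lies between 259 and 260 nt, and in both Control lists the peaks of the 2 regions met there without a gap. Off the canonical transcript, 2 annotated isoforms hold an 82-nt block of the neighbouring region. This block was covered whole in both Control lists, in part in FUSO 1 and not at all in FUSO 2. The whole gene had 1623 and 1833 bases under peaks in Control and 1592 and 1472 in FUSO. The lost stretch held 3 GGAC motifs, and the one nearest to its middle is shown because it stands for the single m6A region of these genes that was lost.
DNAJB1 start, CDS, chr19:14629051-14629071, minus strand: taccacccGGACaagaacaag

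DNAJB1 mRNA was at 149 and 170 FPKM in the FUSO inputs and 112 and 113 FPKM in Control. The start region was counted as lost in every setting tried, including without each library in turn. Leaving out a library could not change this, because a region lost with all lists stays lost by the rule used. The limit on score removed neither Control peak, and such a limit cannot add a FUSO peak. The library and score settings were therefore no test of how firm the loss of this region was. Its GC content was 69.0%, beside a median of 51.5% for all regions, 60% for regions in the first 200 nt and 70.6% for those of them that were lost. Over all genes, 5.3% of the regions in the first 200 nt were lost and 1.59% gained, and elsewhere 2.16% and 2.52%. Among regions in the first 200 nt with a GC content of at least 65%, a limit chosen after the value of DNAJB1 was seen, 10.9% were lost and 1.05% gained. The part of GC content in the DNAJB1 result was not tested.

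HSP90AA1 had a peak at its start in all 4 lists. Control 1 and Control 2 each had a peak from 1 to 357 nt, with scores of 1e-233 and 0, and another from 417 nt on, while FUSO 1 and FUSO 2 each had 1 peak from 1 to 1106 nt with a score of 0. The gap was thus absent from the FUSO lists, and the stretch before it was covered in all 4 lists. The region, chr14:102550836-102553444, took in all 59 nt of the 5′UTR and 1047 nt of CDS, and its GC content was 44.9%. The 122-nt block at its upstream end had 59 nt on the canonical transcript, and no annotated isoform holds the whole block. When a shared peak had to overlap by at least 50% of both peaks, the Control peak at the start counted as lost, because the FUSO peak is so much longer.

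The outline of the HSPD1 peaks at the start differed between lists. In Control 1 peaks covered 77 to 137 nt (score 0.00022) and 345 to 404 nt (score 0.00018), and in Control 2 they covered 77 to 255 nt (score 0.00017) and 315 to 374 nt (score 3.1e-05). FUSO 1 had 1 peak from 77 to 493 nt (score 3.2e-12) and FUSO 2 had 1 from 285 to 463 nt (score 7.9e-13). Only the FUSO 2 list thus lacked a peak in the first 200 nt of HSPD1, while both FUSO lists had a lower score than either Control list over the stretch further on. With peaks of a score above 1e-05 left out the region counted as gained. The region, chr2:198360096-198363557, had a GC content of 45.8%.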

How the data were processed

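HCT116 cells kept with PBS (Control) or F. nucleatum (FUSO) gave 4 input and 4 IP libraries, 2 of each per group, with groups and replicate numbers taken from the sample labels. The deposited mRNA values were FPKM, made by the authors with StringTie on input reads. The submitters' processing notes name Trim Galore 0.3.3 and HISAT2 2.1.0, and the build was hg19 (GRCh37). The 4 deposited peak lists, 1 per replicate and each read as IP against its input, held exon blocks, a gene name and a score between 0 and 0.012, read as the authors' p-value. The methods name MACS2 with a Fisher test, but the layout resembles that of exomePeak, and the program behind them remained unsettled. Neither kind of file gave counts, so depth was unknown and no interval from counting could be given.

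The test of mRNA used limma 3.58.1 (R 4.3.3; lmFit and a trended eBayes, no covariate) on log2(FPKM + 1) in 11088 genes whose mean over the inputs reached 1 FPKM, with Benjamini-Hochberg adjustment over all of them. The pseudocount understates changes of low genes. The count model of the study was not usable on FPKM. Peaks on a strand that shared at least 1 base of their exon blocks were merged into regions, and block starts were converted to 1-based positions. Positions and sequences came from GRCh37 with GENCODE release 44 lifted to it, on 1 canonical transcript per gene, with Python 3.11.15, pandas 2.3.3, NumPy 2.4.6 and pysam 0.24.0. List counts were compared by two-sided exact permutation tests. The statistics were tested on simulated data.

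Named were all 10 members, every gene of the wider lists that was called, of each list otherwise the 2 tested genes with the largest change, HSF1, and every region not in all 4 lists. HSPA6, HSPA1L, HSBP1, STUB1 and CDC37 were named after their values were seen. The members and lists were chosen with earlier results of these data known. Alternatives were 2 pseudocounts, 2 filters, 3 scalings, no variance trend, a replicate block, each library left out, and other limits on score, overlap and distance.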

Additional observations from a re-analysis of the deposited data

How the results depend on the processing

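Of 462 values under alternative settings, 433 kept direction and side of the threshold or stayed near the reported count. The filters, the variance trend and the replicate block leave the fold change of a gene as it was, so direction could not turn there. The number of chaperones called higher in FUSO was 0, and 0 to 2 when 1 library was left out (HSPA8 and HSP90AA1 without Control 2). Of the wider lists, 1 gene was called higher, 0 with no filter on low values and 0 without the variance trend, and 0 to 2 when 1 library was left out. HSPB8 was called without Control 1 (0.74, adjusted p = 0.0467, limma). Signs turned when 1 library was left out for HSPA1A (-0.085 to 0.22), HSPA1B (-0.0064 to 0.28), HSPA8 (-0.081 to 0.46), HSPE1 (-0.16 to 0.082) and HSPA4L (-0.0082 to 0.30), and for HSPD1 (-0.0065) under the GC correction, which had values for 99.12% of tested genes. Over all genes, 74 were called higher and 15 lower, but 35 and 5 with no filter, 51 and 9 without the trend, 136 and 36 without Control 1, 185 and 99 without Control 2, 16 and 8 without FUSO 1, and 13 and 3 without FUSO 2. The cause was not tested, other than that a left-out library leaves 1 in its group, assumed to vary like the rest.

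Gained chaperone regions numbered 3 with peaks of a score above 1e-05 left out (HSPA8, HSPD1 and HSPH1), 1 at a reciprocal overlap of 50% (HSPA8), and 0 to 2 without 1 library. Lost regions numbered 3 at that overlap (DNAJB1, HSPD1 and HSP90AA1) and 1 to 2 without 1 library. The difference in peaks near the start was -0.5 with peaks of a score above 1e-05 left out and -3 by midpoint.

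Same-numbered libraries did not visibly deviate together (correlation 0.0243 for Control 1 with FUSO 1). The labels give only a shared number, and a single correlation cannot settle whether such libraries were prepared together. With the replicate block 0 chaperones were called, DNAJB1 had an adjusted p of 0.0586 (limma), and 75 genes were called higher and 15 lower over all. With 2 libraries a group, unknown depth and no enrichment value per peak, a difference in the degree of methylation could not be measured.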
